A study of Mus musculus with 10 samples.

Results

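The olfactory receptor (OR) genes from Olfr281 to Olfr288, Olfr414 to Olfr435, Olfr1359 to Olfr1370 and Olfr1404 to Olfr1416 lie in small genomic clusters, and are described here in the main olfactory epithelium (MOE) of H2be-GF and WT mice. They were taken by gene number, in blocks selected because their median changes between these same arrays leaned downward, so that every comparison of H2be-GF with WT values over them is a description and carries no test. Of the 55 numbers in these ranges, 37 were read by a probe set annotated with 1 receptor symbol, which made 37 of the 1026 OR genes on the array. Another 4 probe sets shared by several symbols were left out. A RefSeq gene table placed 15 of the 37 genes in a distal run on chromosome 1, 6 in a proximal run on chromosome 1, 7 on chromosome 13, 7 on chromosome 15 and 2, Olfr434 and Olfr435, on chromosome 6, so that the numbering took in a run outside the 3 chromosomes named for these clusters. All 37 had a mean log2 value above 5, between 5.36 and 9.34, and 32 had one above 7. None stood at the lower limit of 0 on any array.

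ORs are G protein-coupled receptors that olfactory sensory neurons carry on their cilia, where they detect odorants. Each mature neuron chooses a single OR allele from a very large gene family and holds the rest silent. The RNA level of an OR in the whole epithelium thus depends on how many neurons express it and on how much RNA each holds. OR genes sit in clusters on many chromosomes, have intron-free coding regions, and are grouped into MOR families by sequence. Their promoters are known to hold sites for homeodomain factors such as Lhx2 and for Olf/Ebf factors.

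Whole MOE of 5-week old mice was measured on Affymetrix Mouse Gene 1.0 ST arrays, 4 from H2be-GF and 6 from WT mice. H2be-GF mice carry a transgene in which the promoter of Omp, the marker protein of mature olfactory neurons, drives FLAG-tagged H2BE, the H2B histone variant of olfactory neurons. They descend from a founder line bred to C57Bl/6 mice, and per the study's methods the transgene is off in a band of neurons near zone 2 of the epithelium. Both genotypes keep the endogenous H2BE gene, and the age was the same in both. The RNA on an array came from a pool of animals, larger for H2be-GF than for WT, so that errors and p-values measure the spread between such pools. In whole tissue, fewer neurons that express a receptor and less receptor RNA per neuron cannot be told apart. By in situ hybridization for receptors outside these ranges, the study found changed numbers of expressing neurons in H2be-GF mice. It ascribes them to neuron life span and not to receptor choice.

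The array medians over the probe sets tested lay between 8.25 and 8.33, and pairs of arrays correlated at 0.969 to 0.988 over probe sets. The probe set of Hist2h2be, the gene of H2BE, read 11.85, 11.92, 11.85 and 11.76 on the H2be-GF arrays and 12.00 to 12.13 on the WT arrays, lower in H2be-GF; whether this probe set reads the transgene was not tested. All 6 markers of mature olfactory neurons were well expressed, none was at 0, and their mean log2 value was 12.14 to 12.19 on the H2be-GF arrays and 12.20 to 12.28 on the WT arrays. For 2 of these 6, Omp and Cnga2, every H2be-GF array lay below every WT array, which was so for 372 of all 23194 probe sets tested. The other markers of this list overlapped, with changes of -0.10 for Adcy3, -0.13 for Cnga4, -0.01 for Stoml3 and 0.06 for Gnal. The shift of -0.06 in the mean of the 6 markers runs the same way as the median of the 37 receptors (-0.095). The median of the 981 other ORs with a mean above 5 was 0.032. The part of this shift in the receptors' values was not tested. Lists for the other cell types of the tissue differed by -0.32 for blood, read by Alas2 alone, to 0.09 for immune cells, with -0.15 for respiratory ciliated cells, -0.12 for horizontal basal cells, -0.12 for the olfactory bulb and 0.05 for supporting cells, and no measured marker was at 0. The groups did not overlap either for Eomes of the olfactory bulb list (change -0.45). It lay at 7.78 to 8.09 on the H2be-GF arrays and at 8.20 to 8.61 on the WT arrays. In the same list Tbr1 changed by 0.19 and Th by -0.09, both with overlap. Tekt1 of ciliated cells did not overlap, at 9.18 to 9.32 on the H2be-GF arrays and 9.33 to 9.5 on the WT arrays. The part of these markers in the receptors' values was not tested.

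The windows around the annotated starts of 5 members are shown because their values carry most of the description. Olfr286 and Olfr1412 are the 2 members called over ORs, Olfr288 is the family partner of Olfr286, and Olfr424 and Olfr427 had the 2 highest changes. Each window is 300 bases from RefSeq (GRCm38.p6), mostly upstream of the start, and is written along the strand of the gene. They lie at chr15:98234401-98234700 and chr15:98195493-98195792 on the minus strand, and at chr1:92588082-92588381, chr1:174136496-174136795 and chr1:174099210-174099509 on the plus strand. Capitals mark matches on either strand. The letters searched were TAATNA for the homeodomain core and CCCNNGGG for the Olf/Ebf core. The third motif, the TATA box, was spelled as TATAAA. No matches of different motifs overlapped in these 5 windows.
Olfr286: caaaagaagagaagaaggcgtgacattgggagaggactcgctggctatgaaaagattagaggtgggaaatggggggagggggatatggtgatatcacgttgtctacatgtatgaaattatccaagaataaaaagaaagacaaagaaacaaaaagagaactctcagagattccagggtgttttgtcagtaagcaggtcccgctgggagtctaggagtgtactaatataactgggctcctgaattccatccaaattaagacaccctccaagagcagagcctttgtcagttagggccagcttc
Olfr288: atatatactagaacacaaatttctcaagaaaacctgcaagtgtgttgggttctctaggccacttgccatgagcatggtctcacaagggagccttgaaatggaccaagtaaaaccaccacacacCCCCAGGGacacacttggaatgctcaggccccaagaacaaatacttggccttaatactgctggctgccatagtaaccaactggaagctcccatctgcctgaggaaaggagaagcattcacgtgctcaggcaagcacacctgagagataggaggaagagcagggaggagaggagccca
Olfr1412: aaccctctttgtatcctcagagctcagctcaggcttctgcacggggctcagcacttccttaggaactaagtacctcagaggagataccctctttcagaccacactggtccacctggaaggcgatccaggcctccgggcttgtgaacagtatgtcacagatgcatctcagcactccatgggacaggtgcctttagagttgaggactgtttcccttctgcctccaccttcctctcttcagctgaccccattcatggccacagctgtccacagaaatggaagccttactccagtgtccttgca
Olfr424: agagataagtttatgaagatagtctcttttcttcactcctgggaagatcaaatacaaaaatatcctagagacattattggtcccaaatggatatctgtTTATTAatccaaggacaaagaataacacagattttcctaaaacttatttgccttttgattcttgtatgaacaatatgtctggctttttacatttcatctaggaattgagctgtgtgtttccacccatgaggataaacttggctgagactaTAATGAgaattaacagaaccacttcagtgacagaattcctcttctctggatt
Olfr427: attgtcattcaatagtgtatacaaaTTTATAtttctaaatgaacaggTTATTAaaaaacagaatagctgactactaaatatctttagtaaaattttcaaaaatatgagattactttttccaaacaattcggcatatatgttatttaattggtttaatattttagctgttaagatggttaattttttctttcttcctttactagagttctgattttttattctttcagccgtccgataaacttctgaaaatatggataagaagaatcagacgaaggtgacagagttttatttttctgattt

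Such a window was on hand for 33 of the 37 members and matched by symbol. The homeodomain core occurred in 19 of the 33 (57.6%), against 65.9% of 947 OR windows and 26.5% of all 32851 windows. It was in none of the 6 windows of the proximal run on chromosome 1, in 11 of 14 of the distal run, in 4 of 6 on chromosome 13, in 2 of 5 on chromosome 15 and in both windows on chromosome 6. Within the distal run it was in all 5 windows of family MOR105, among them the 2 printed above. The GC content was 46.3% to 59% in the proximal windows, 25.7% to 47.3% in the distal ones and 25.7% to 40% in those of MOR105. Its part in these counts was not tested. The TATA box occurred in 7 of the 33 windows (21.2%), against 41.1% of OR windows and 13.6% of all windows. The Olf/Ebf core occurred once, in Olfr288 (3.03% of member windows, 3.06% of OR windows, 13.7% of all windows), and the windows of Olfr286 and Olfr1412 held none of these letter patterns. These are matches of letters and not mapped sites. In 17 of the 33 windows, and 685 of the 947 OR windows, the gene model begins at a start codon. Most of such a window lies before the coding region, not before a mapped transcription start, and its end is coding sequence. In the Olfr424 window the second marked homeodomain match spans this start codon. Windows of the same family were 47.8% identical in the median of 50 pairs, and those of different families and runs 46.3% in the median of 394 pairs. The most alike were Olfr1412 and Olfr1411, neighbours in family MOR208, at 64.9%.

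The members leaned low in H2be-GF mice. The log2 change, the mean of H2be-GF arrays minus that of WT arrays, was negative for 27 of the 37 and positive for 10, with a median of -0.095. Over the 981 other ORs with a mean above 5 the median was 0.032, with 42.4% negative, and over all 23194 probe sets tested it was 0.008, with 47.4% negative. Changes ran from -0.41 for Olfr286 to 0.37 for Olfr427, or from 0.753-fold to 1.29-fold. The most negative median was that of the run on chromosome 15 (-0.187), followed by those of the proximal run on chromosome 1 (-0.121), of chromosome 6 (-0.112), of chromosome 13 (-0.074) and of the distal run on chromosome 1 (-0.064). The median on chromosome 15 is the value of Olfr285 and rested on 1 array, since without H2be-GF replicate 1 it was -0.040, against -0.102 for the proximal run. Within the arrays low in the X-linked RNA Xist it was -0.059, against -0.139 for the proximal run, so that the runs have no settled order.

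**Figure D1:**
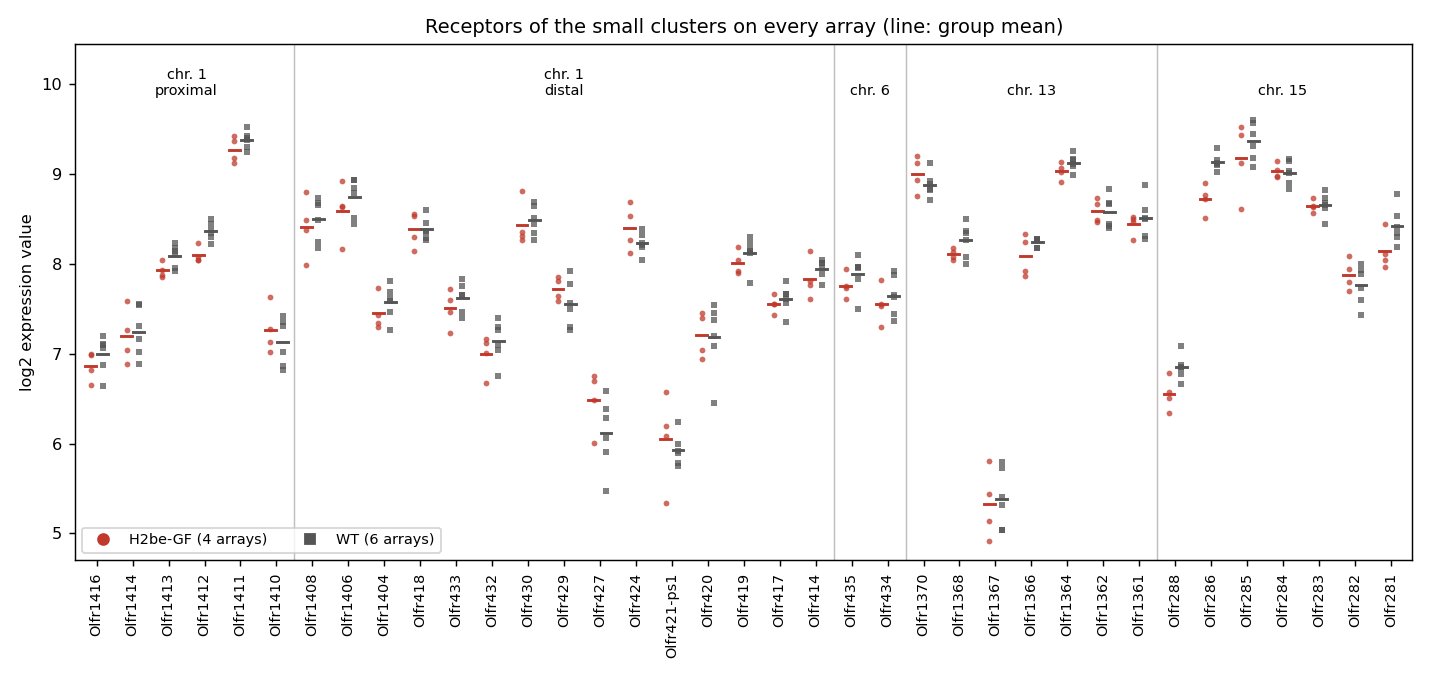
Log2 expression value (vertical) of each of the 37 receptors (horizontal, in map order within each run) on the 4 H2be-GF arrays (red circles) and the 6 WT arrays (grey squares), with a line at each group mean. Only Olfr286, on chromosome 15, has all H2be-GF points below all WT points.

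Olfr286 and Olfr288 are the members of family MOR286, on chromosome 15, and were the 2 members with the lowest changes. Olfr286 had 8.72, 8.51, 8.90 and 8.77 on the H2be-GF arrays, against a lowest, median and highest WT value of 9.02, 9.12 and 9.29. All 4 H2be-GF arrays lay below all 6 WT arrays, which was so for 1 of the 37 members. The change was -0.41 (SE 0.08), or 0.753-fold. Olfr288, a dimmer probe set with a mean below 7, lay between 6.34 and 6.79 on the H2be-GF arrays and between 6.66 and 7.09 on the WT arrays, a change of -0.30 (SE 0.10).

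The other 5 receptors on chromosome 15 belong to family MOR160 and went different ways. Olfr281 had 8.11, 8.05, 7.97 and 8.45 on the H2be-GF arrays, against 8.19, 8.38 and 8.78 as the lowest, median and highest WT values. Here 3 of the 4 H2be-GF arrays lay below the WT range, and the change was -0.28 (SE 0.12). Olfr285 had 8.61, 9.13, 9.52 and 9.44 on the H2be-GF arrays and 9.08, 9.38 and 9.60 as the WT values. Its change of -0.19 rested on a single array, since without H2be-GF replicate 1 it was 0.00. Olfr282 was at 8.09, 7.70, 7.80 and 7.94 on the H2be-GF arrays, with WT values of 7.43, 7.81 and 8.0 (change 0.12). Olfr284 was at 9.05, 8.98, 9.15 and 8.97 on the H2be-GF arrays, with WT values of 8.83, 9.03 and 9.17 (change 0.02). Both sets of arrays overlapped for these 2 receptors, as they did for Olfr283 (change -0.01).

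On proximal chromosome 1 the run holds 4 receptors of family MOR208 and 2 of family MOR103. Olfr1412 of MOR208 had 8.04, 8.23, 8.04 and 8.08 on the H2be-GF arrays, against 8.22, 8.37 and 8.50 as the lowest, median and highest WT values. A single H2be-GF array, replicate 2, lay within the WT range and near its lowest value, and the change was -0.27 (SE 0.07), or 0.832-fold. Its neighbour Olfr1413 had 8.05, 7.86, 7.93 and 7.88 on the H2be-GF arrays and 7.92, 8.13 and 8.23 as the WT values. All H2be-GF arrays stood below the WT median, with a change of -0.16 (SE 0.08). Olfr1411, next in the row, differed by -0.11. Olfr1410, the last of the 4, had the opposite sign, with 7.63, 7.02, 7.28 and 7.13 on the H2be-GF arrays against 6.82, 7.16 and 7.42 in WT (change 0.13, SE 0.15). The window of Olfr1412 was 64.9% identical to that of Olfr1411, 63.1% to that of Olfr1410 and 47.2% to that of Olfr1413. A link between window and change was not tested. Of the MOR103 pair, Olfr1414 had 6.89, 7.27, 7.04 and 7.59 on the H2be-GF arrays and 6.89, 7.24 and 7.55 in WT (change -0.05), and Olfr1416 differed by -0.13. The arrays of the groups overlapped for each of these receptors.

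In the distal run on chromosome 1 the families stood apart over all arrays, but not without single arrays. Of the 6 members of MOR105 5 were higher in H2be-GF arrays, with a median change of 0.144, while all 9 members of the other families in the run were lower, with a median of -0.112 and a range of -0.15 to -0.01. This division was noticed in the values and was not tested. The median over MOR105, with each receptor centred on its WT mean, was 0.390, -0.039, 0.233 and -0.145 on the H2be-GF arrays and -0.174 to 0.194 on the WT arrays, so that the groups overlapped. Without H2be-GF replicate 1, 3 of the 6 were higher and the median change was 0.011. Without H2be-GF replicate 4, 2 of the 9 other receptors, Olfr418 and Olfr1408, were higher. Of the MOR105 receptors 3 were higher both in the arrays high and in those low in Xist. In MOR105, Olfr424 had 8.69, 8.27, 8.54 and 8.12 on the H2be-GF arrays, against 8.05, 8.22 and 8.39 as the lowest, median and highest WT values. The H2be-GF arrays thus covered a wider range than the WT arrays, 2 of them lay above it, and the change was 0.17 (SE 0.11). Olfr429 had 7.85, 7.59, 7.81 and 7.64 on the H2be-GF arrays and 7.27, 7.54 and 7.92 as the WT values, a change of 0.17 (SE 0.13). All its H2be-GF arrays stood above the WT median and within the WT range. Olfr427, with a mean of 6.26, had the highest change of all members at 0.37 (SE 0.21), with H2be-GF values of 6.01 to 6.75 and WT values of 5.47 to 6.59. Olfr420 and the pseudogene Olfr421-ps1 differed by 0.02 and 0.12, and Olfr430 by -0.05.

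The 9 members of the other families in the distal run lay close to their WT values. Olfr432 and Olfr433 are the members of MOR123. Olfr432 had 7.12, 7.01, 7.16 and 6.68 on the H2be-GF arrays against 6.75, 7.18 and 7.40 in WT (change -0.15, SE 0.13). Olfr433 had 7.72, 7.23, 7.60 and 7.47 on the H2be-GF arrays against 7.40, 7.65 and 7.83 in WT (change -0.12, SE 0.11). In each a single H2be-GF array lay below the WT range. All 6 receptors of family MOR267 were lower, by -0.01 for Olfr418, -0.06 for Olfr417, -0.08 for Olfr1408, -0.11 for Olfr419, -0.12 for Olfr1404 and -0.15 for Olfr1406. The last had 8.92, 8.63, 8.65 and 8.17 on the H2be-GF arrays and 8.45, 8.82 and 8.94 in WT, so that H2be-GF replicate 4 alone fell outside. Olfr414, a MOR103 receptor like those of the proximal run, differed by -0.11.

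On chromosome 13 the 7 members, 6 of family MOR256 and Olfr1366 of family MOR130, lie among zinc finger and other genes and next to a histone gene cluster. Olfr1368 had 8.08, 8.13, 8.05 and 8.18 on the H2be-GF arrays, against 8.0, 8.31 and 8.50 as the lowest, median and highest WT values (change -0.16, SE 0.10). Olfr1366 had 8.25, 8.33, 7.87 and 7.92 on the H2be-GF arrays and 8.18, 8.26 and 8.28 in WT (change -0.15, SE 0.09). The H2be-GF arrays of Olfr1366 parted into 2 near or above the WT values and 2 below all of them. The upper 2 are the H2be-GF arrays high in Xist and the lower 2 are those low in Xist. Within these sets of arrays its change was 0.02 and -0.32. Olfr1364 had 9.03, 8.91, 9.07 and 9.14 on the H2be-GF arrays and 8.99, 9.14 and 9.26 in WT (change -0.10), with 3 of the 4 below the WT median. In the other direction Olfr1370 had 8.93, 9.20, 8.76 and 9.13 on the H2be-GF arrays and 8.71, 8.86 and 9.12 in WT (change 0.12, SE 0.10). Olfr1362 had 8.67, 8.47, 8.73 and 8.49 on the H2be-GF arrays and 8.40, 8.56 and 8.83 in WT (change 0.02). Olfr1361 differed by -0.07 and the dim Olfr1367, with a mean of 5.36, by -0.06, and all 7 receptors overlapped between the groups.

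The 2 receptors on chromosome 6 are of family MOR261 and were both slightly lower. Olfr435 had 7.94, 7.61, 7.76 and 7.73 on the H2be-GF arrays against 7.50, 7.96 and 8.10 in WT (change -0.13, SE 0.11), with all H2be-GF arrays below the WT median. Olfr434 differed by -0.09, and the groups overlapped for both.

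The rule ends at gene numbers and not at a value, and the receptors just outside it were mixed. Next to the chromosome 15 block, Olfr279, also on chromosome 15, differed by -0.44, below every member, and Olfr290 on chromosome 7 by 0.32. The last numbers inside that block were Olfr281 at -0.28 and Olfr288 at -0.30. Below Olfr414 (-0.11) stood Olfr412 on chromosome 11 at -0.36, and above Olfr435 (-0.13) stood Olfr437, also on chromosome 6, at -0.08. Outside Olfr1361 (-0.07) and Olfr1370 (0.12) stood Olfr1357 on chromosome 10 at -0.13 and Olfr1372-ps1 on chromosome 11 at -0.23. Outside Olfr1404 (-0.12) and Olfr1416 (-0.13) stood Olfr1402 on chromosome 3 at 0.01 and Olfr1417 on chromosome 19 at -0.48.

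**Figure D2:**
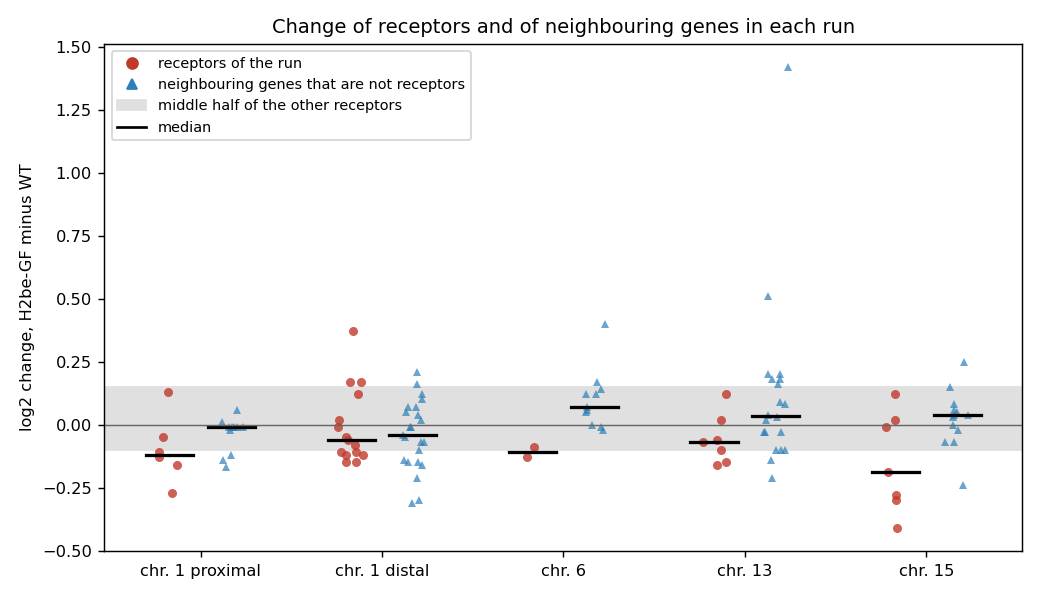
Log2 change, H2be-GF minus WT (vertical), of the receptors (red circles) and of the neighbouring genes that are not receptors (blue triangles) in each of the 5 runs, with black lines at the medians; the grey band is the interquartile range of the 981 other receptors. Of the 37 receptor points 17 lie in the band, 17 below it and 3 above, and the highest point is the histone gene H2bc22 at 1.42.

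Array by array, the members tracked the other receptors with an offset. With each receptor centred on its WT mean, the median over the members was 0.048, -0.112, -0.060 and -0.160 on the 4 H2be-GF arrays, and ran from -0.118 to 0.105 on the 6 WT arrays. These medians overlapped between the groups. The median over the other receptors on the same H2be-GF arrays was 0.161, 0.027, 0.036 and -0.087. The members thus differed from the other receptors by -0.113, -0.139, -0.096 and -0.073 on the H2be-GF arrays, while on the WT arrays this difference lay between -0.034 and 0.037. The blocks were selected for low values in this comparison, so that a gap of this kind in the H2be-GF arrays was set by the selection.

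**Figure D3:**
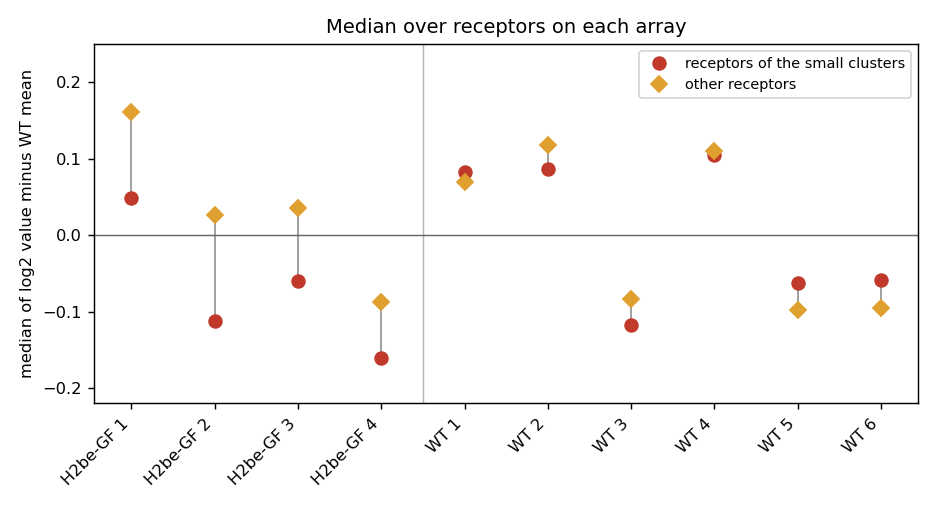
Median over receptors of the log2 value minus the receptor's WT mean (vertical) on each array (horizontal, H2be-GF left of WT), for the 37 receptors of the small clusters (red circles) and the 981 other receptors (yellow diamonds), joined by a line. Red minus yellow is -0.139 to -0.073 on the 4 H2be-GF arrays, and of either sign on the WT arrays.

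Calls on members were few and are given with the share over all features. Adjusted over all probe sets tested, limma called 0 of the 37 members, against 0.0862% of all features. Before adjustment 4 members, all lower, had a p under 0.05, against 8.43% of all probe sets and 23.0% of the ORs with a mean above 7. Adjusted over the 748 ORs with a mean above 7, to which 32 members belong, it called 2, Olfr286 and Olfr1412, both lower, against 9.89% of those ORs. Arrays of the groups did not overlap for 1 member, lower in H2be-GF, against 5.48% of those 748 ORs lower and 4.01% higher. The blocks were chosen on this contrast, so that nothing is read from these counts. Olfr286 was called in all 10 fits that left out an array. It was not called with the replicate number as a block, nor within the arrays high or those low in Xist. Olfr1412 was lost without H2be-GF replicate 1, 3 or 4 and without WT replicate 2, 4, 5 or 6. These fits reuse the arrays on which the blocks were chosen, and nothing is read from them either.

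The arrays fell into 2 sets by the level of Xist, the non-coding RNA made from the silent X chromosome, with 2 H2be-GF and 3 WT arrays in each set. The change had the same sign in both sets for 23 of the 37 members (62.2%), against 69.4% of the other ORs. It was lower in both for 18 and higher in both for 5, and the median over members was -0.079 in either set. Both sets are parts of the arrays on which the blocks were selected. Olfr286 was at -0.48 in the set high in Xist and -0.34 in the low set, Olfr288 at -0.20 and -0.40, Olfr281 at -0.22 and -0.34, and Olfr1412 at -0.16 and -0.37. Olfr427 was higher in both, by 0.33 and 0.40. Olfr421-ps1 turned, at 0.51 in the high set and -0.27 in the low set. A difference of the genotype change between the sets was called by limma for 0 of the 37 members and 0 of all probe sets, with 2 members (5.41%) and 2.92% of all probe sets below 0.05 before adjustment.

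**Figure D4:**
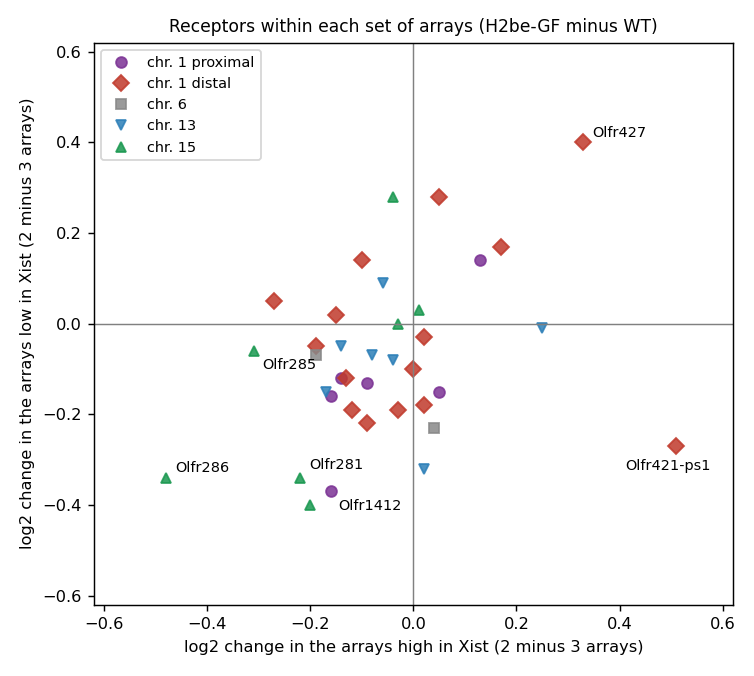
Log2 change, H2be-GF minus WT, of each of the 37 receptors in the 5 arrays of the high Xist set (horizontal) and the 5 of the low set (vertical), each 2 H2be-GF minus 3 WT arrays, coloured by run. Olfr286 lies low on both axes, at -0.48 and -0.34, and Olfr421-ps1 has opposite signs.

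Around their own group means the members also varied together from array to array, which the selection did not use. Over the 10 arrays the median correlation was 0.31 for 163 pairs of members in the same run, 0.25 for 503 pairs in different runs and 0.28 for pairs of a member and another receptor. By run it was 0.42 on distal chromosome 1 and 0.28 on chromosome 13, 0.05 on proximal chromosome 1 and -0.08 on chromosome 15. Within MOR105 it was 0.56 over 15 pairs, and the chromosome 6 pair correlated at 0.71. The points share the arrays, their RNA pools and their normalization, and related receptors have similar probes, so that these values are descriptions only.

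Of the genes beside the runs that are not receptors, 1 was called, and it was a histone gene. The 75 neighbouring genes, taken by position, had 78 probe sets, of which limma called 1 higher and 0 lower after adjustment over the whole table (0.0862% of all). Before adjustment 4 probe sets that were higher and 2 that were lower had a limma p below 0.05, or 7.69% of the 78 against 8.43% of all probe sets tested. They were unevenly spread, with 5 among the 20 beside the chromosome 13 run (25%) and 1 among the 23 beside the distal run on chromosome 1. Those on chromosome 13 were Gpr141b (change 0.51), Zkscan3, Zkscan8, Zkscan4 and the called gene, H2bc22. The 1 on chromosome 1 was Dusp23 (change -0.30). This spread was not tested. H2bc22, a gene for histone H2B in the cluster that follows the chromosome 13 run, had 9.10, 9.45, 9.24 and 9.28 on the H2be-GF arrays, against 7.59 to 8.19 on the WT arrays. It was 2.67-fold higher in H2be-GF arrays (log2 change 1.42, SE 0.12, limma adjusted p = 0.000243), with all H2be-GF arrays above all WT arrays. Whether its probe set also reads the transgene, which encodes a histone of the same family, was not tested. The other histone genes listed there gave no call, with changes of -0.10 for H2bc14, -0.10 for H2ac15 and -0.14 for H1f5.

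The median change of the neighbours was 0.006, with 38 probe sets lower and 40 higher. It was 0.042 for the neighbours of the chromosome 15 run, 0.034 for those on chromosome 13, 0.068 on chromosome 6, -0.010 on proximal and -0.040 on distal chromosome 1. The genes between the receptors of the distal chromosome 1 run are mainly interferon-inducible genes of the Ifi200 group, none of which was called, and those within the chromosome 13 run include zinc finger genes, with changes of -0.21 for Zkscan4, 0.20 for Zkscan3, 0.16 for Zkscan8 and 0.18 for Zscan12, none called. The medians of receptors and neighbours differed in sign on chromosomes 6, 13 and 15; this difference was not tested, since the receptors were selected on their values.

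Of the genes that ORs work through or depend on, 1 was called. The list held 18 genes of odour transduction, 3 that carry ORs to the cell surface, and 12 factors of OR choice and OR promoters, with 36 probe sets in all. It was chosen with earlier results of these data known, so that calls on it are a description. Of these, limma called 1 higher and 0 lower after adjustment over the whole table, against 0.0862% of all. Before adjustment 4 of the 36 (11.1%) had a limma p below 0.05, against 8.43% of all probe sets tested. Lhx2, the homeodomain factor that binds OR promoters and enhancers, had 11.50, 11.42, 11.46 and 11.45 on the H2be-GF arrays, against 11.01 to 11.17 on the WT arrays. It rose by 0.37 (SE 0.06, limma adjusted p = 0.0425), with no overlap between the groups. The call was lost when any 1 of the 10 arrays was left out, with adjusted p-values from 0.0669 to 0.19, while the change stayed between 0.35 and 0.38. The remaining factors gave no call, nor did transduction genes, whose changes had a median of -0.065 with 14 probe sets lower and 7 higher, or the 3 trafficking genes (median -0.029). Without a call, the groups did not overlap either for Ldb1, Rtp1, Cnga2 and Omp, all lower in H2be-GF. Over all 23194 probe sets tested, the groups did not overlap for 372 that were lower and 299 that were higher.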

How the data were processed

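Array scans had been checked with arrayQualityMetrics and summarised per probe set by the authors in Affymetrix Expression Console (IterPLIER, sketch-quantile), and the deposited values are log2 expression values of 10 arrays. The versions of these tools and a build are not given in the sources used here. Quantile normalization hides a shift that most genes share. Gene names came from the platform annotation and a RefSeq gene table of GRCm38.p6, which matched 37 of 37 members and served for names, chromosomes and gene order. MOR families are its synonyms. Receptors less than 2 megabases apart formed a run. Neighbours were the 5 nearest coding genes with a probe set tested on each side, and all inside.

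Differences were fitted with limma 3.58.1 in R 4.3.3 (genotype alone, moderated, two-sided) over the 23194 named probe sets whose mean exceeded 5, p-values were adjusted by Benjamini-Hochberg and called under 0.05, and adjusted again over the 748 ORs with a mean above 7. The fit was tested on simulated data. Windows were aligned with Biopython 1.88 and plots drawn with matplotlib 3.10.9. Array values are given for members called over ORs and, per number range, for the 3 with the lowest and 2 with the highest change among means above 7. Neighbouring and signalling genes were named if called; others were chosen after their values were seen. The members and lists were chosen with earlier results of these data known. The number of arrays limits precision. Alternatives were tried for the normalization, a constant of 16 added before log2, the variance model, array weights, blocks for replicate number and Xist set, the filter, and leaving out each array.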

Additional observations from a re-analysis of the deposited data

Results flagged for a closer look

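Of 78 groups of arrays examined, which were the H2be-GF and the WT values of the 37 receptors, H2bc22 and Lhx2, 1 held a value far from the rest. Olfr419, a MOR267 receptor of the distal run on chromosome 1, was at 7.79 on WT replicate 3, while the other 5 WT arrays lay between 8.12 and 8.30. The gap to the nearest array took up 0.654 of the whole range of the group. Chance flags about 1 in 20 such groups. The change of Olfr419 was -0.11 over all arrays and between -0.18 and -0.07 when each array was left out.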

How the results depend on the processing

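The median change of the members stayed negative under all 22 alternatives, at -0.138 to -0.079 in the 12 that kept every array or 1 Xist set and -0.117 to -0.049 when each array was left out, nearest to 0 without H2be-GF replicate 4 (-0.049) and without WT replicate 4 (-0.057). The blocks were selected for a low median on these same arrays, so that its sign under the alternatives was largely set by the selection. Of the 37 members 20 kept their sign under every alternative. Adjusted over all probe sets, a trended and robust variance called 1 member, Olfr286, where the fit as reported called 0. Adjusted over ORs, the 2 calls became 1 with arrays centred on their median, with receptors centred on the receptor mean or with no filter, stayed at 2 with a trended and robust variance, where Olfr281 was called (adjusted p = 0.0365) and Olfr1412 was not (adjusted p = 0.0553), and became 0 within either Xist set, and 1 to 2 when an array was left out. Of the neighbouring genes 0 were called within the arrays high in Xist, where H2bc22 was still at 1.44. Of the signalling genes 0 were called with a second quantile normalization, with the Xist set as a block, within either Xist set, and without any array (0 to 0). The fits within a set had fewer arrays, while the second quantile normalization and the Xist block kept every array. The cause of these losses was not tested.

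With the replicate number as a block 0 members were called over ORs, 1 neighbouring gene and 0 signalling genes over all probe sets, and the median change of the members was -0.138. Deviations of same-numbered arrays correlated at 0.53, 0.22, -0.42 and 0.26 over probe sets. H2be-GF replicate 1 correlated most with WT replicate 1, and H2be-GF replicates 2, 3 and 4 most with WT replicates 3, 4 and 6. These few correlations do not settle whether the numbers pair the arrays.

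Changes of dim probe sets such as Olfr427, Olfr421-ps1 and Olfr1367 are the least certain. Receptors of a family have similar sequences, and how far their probe sets read each other was not tested.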
